A study of Mus musculus with 6 samples.

Results

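The genes described here encode the nuclear subunits of the oxidative phosphorylation complexes of mitochondria, measured in newborn mouse liver with and without Igf2. They were chosen by symbol: every gene on the array whose symbol begins with Ndufa, Ndufb, Ndufc, Ndufs, Ndufv, Sdha to Sdhd, Uqcr, Cox4i, Cox5 to Cox8 or Atp5, and Cyc1, without the assembly factors named Ndufaf or Sdhaf. The rule found 80 genes, of which 73 passed the filter on dim probes (3 or more of the 6 arrays with a detection p under 0.05), among 11346 genes tested. All 73 were in fact detected on 6 of 6 arrays, so none of them entered through a single group. Complex I was represented by 35 of its 36 genes under the rule, complex II by 3 of 4, complex III by 7 of 8, complex IV by 12 of 16 and complex V by 16 of 16.

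Complexes I and II pass electrons from NADH and succinate to ubiquinone, complex III passes them to cytochrome c and complex IV to oxygen, and complexes I, III and IV pump protons across the inner membrane. Complex V, the ATP synthase, lets the protons flow back and makes ATP. At birth the liver loses its supply of maternal glucose and begins to burn fatty acids and to make glucose, both of which draw on this chain, and the coactivators Ppargc1a and Ppargc1b and the nuclear receptor Esrra are known to raise transcription of its genes.

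Total RNA of newborn liver from mice of a mixed 129 and c57Bl/6 background was hybridised to Illumina expression BeadChips, 3 arrays labelled wild type (WT) and 3 labelled Igf2 knockout, with no treatment named. Igf2 encodes insulin-like growth factor 2, a growth factor of the fetus. The labels give neither the Igf2 allele nor a Cre driver, nor how many pups or litters an array stands for. The p-values therefore reflect only how far these arrays scatter, which may be technical. In whole liver, fewer cells of a type and less RNA per cell cannot be told apart. Levels below are log2 intensities after background correction and quantile normalization, and differences are knockout minus WT on that scale with limma's standard error (SE), n = 3 arrays a group.

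The arrays detected 46.3% to 49.9% of 45281 probes. The Igf2 probe read 14.27, 14.23 and 14.19 on the WT arrays and 13.19, 13.54 and 13.24 on the knockout arrays, a difference of -0.91 ± 0.11 (limma, adjusted p = 0.002197). The groups did not overlap, although the probe stayed bright in the knockout, and where it lies relative to the deleted part is not given in the sources used here. Hepatocyte markers were at a like summed level in both groups (16.89 to 16.92 in WT, 16.85 to 16.87 in the knockout, 8 of 8 markers detected and 0 past limma's adjusted p of 0.05, with 1 lower at an unadjusted p under 0.05). Knockout arrays 1 and 2 stood apart: the summed level of 9 lung markers was 13.13 and 14.5 there, against 9.73 on knockout array 3 and 9.67 to 9.83 on the WT arrays. Knockout array 3 was not free of such transcripts: Sftpc read 6.36 there (4.54 to 4.82 in WT) and Scgb1a1 5.87 (4.45 to 4.73 in WT), and both were detected on 3 knockout arrays and 0 WT arrays. The other lung markers were mixed on knockout array 3. Ager read 6.92 (6.25 to 6.65 in WT), Napsa 8.71 (8.71 to 8.96 in WT) and Sftpd 6.29, below WT (7.25 to 7.57). Sftpb, Sftpa1, Cldn18 and Lamp3 read 4.38 to 4.57 there, against 4.38 to 4.67 in WT. Leaving out arrays 1 and 2 therefore lowers the lung transcripts and does not remove them, and it leaves 1 knockout array, whose spread is assumed to be like that of the other arrays. Xist, expressed in females, read 10.01 on WT array 1, 10.97 and 10.84 on knockout arrays 1 and 2, and 4.61 to 5.09 on the other 3 arrays. The Y-linked genes Eif2s3y, Kdm5d and Uty were detected on 6 of 6 arrays, those with high Xist included. Eif2s3y read 9.82 on WT array 1 and 9.45 and 9.31 on knockout arrays 1 and 2. Kdm5d was lower in the knockout (-0.71, limma, adjusted p = 0.01994), while Eif2s3y (-0.32) and Uty (-0.55) did not pass. The sex of the pups behind each array was not tested.

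Transcripts of the subunits differed little between knockout and WT liver. Atp5k, Sdhb and Uqcrq rose, and no subunit fell. These 3 of 73 are 4.11%, against 16.7% of all genes tested past the same threshold (limma, Benjamini-Hochberg adjusted p under 0.05 over all genes). By direction, 8.23% of all genes rose and 8.49% fell. The count of 0 lower subunits is from limma, and 3 subunits were lower at an unadjusted p under 0.05. At that unadjusted threshold 10 subunits passed (13.7%, of which 7 were higher), against 33.6% of all genes. The levels of the 3 knockout arrays lay wholly above or below those of the 3 WT arrays for 17 subunits (23.3%, 12 higher and 5 lower), against 39.1% of all genes. The number of subunits that rose was 1 without WT array 1, without knockout array 1 or without knockout arrays 1 and 2 (Atp5k each time), where 8.72%, 7.48% and 2.01% of all genes passed the threshold.

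The size of the differences was small as well as their number. The median over the 73 subunits was 0.03, beside 0.02 over all genes, with quartiles of -0.05 and 0.11 for the subunits and of -0.17 and 0.20 for all genes. A difference of less than 0.2 in size was measured for 60 subunits (82.2%), against 52.7% of all genes. The 95% confidence interval of the difference lay within 0.5 of 0 for 62 subunits (84.9%), against 55.6% of all genes, so changes beyond that size lay outside the interval for most subunits. The median SE was 0.092 for the subunits and 0.113 for all genes. A single subunit, Atp5k, exceeded 0.5 (1.37%, against 13.7% of all genes). Set against each gene's mean over the WT arrays, the median subunit stood at 0.01, 0.03 and -0.03 on the WT arrays and at 0.05, -0.02 and 0.07 on the knockout arrays, so the groups overlapped.

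**Figure D1:**
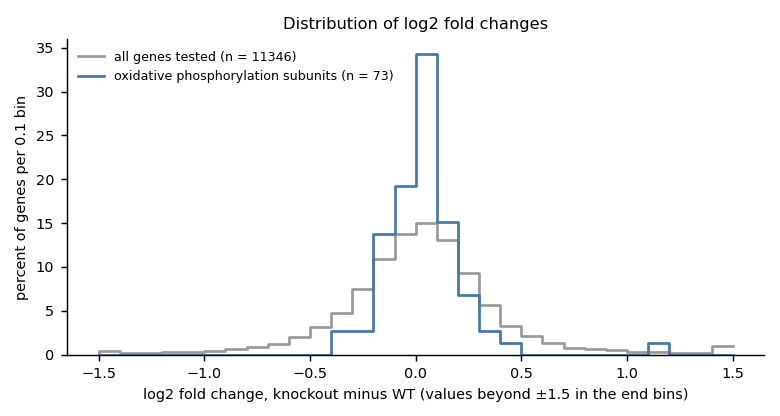
Distribution of the differences (knockout minus WT, log2) of the 73 subunits and of all 11346 genes tested, each as a share of its own set. The subunits are gathered closer to 0 than all genes, and Atp5k lies alone at 1.16.

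**Figure D2:**
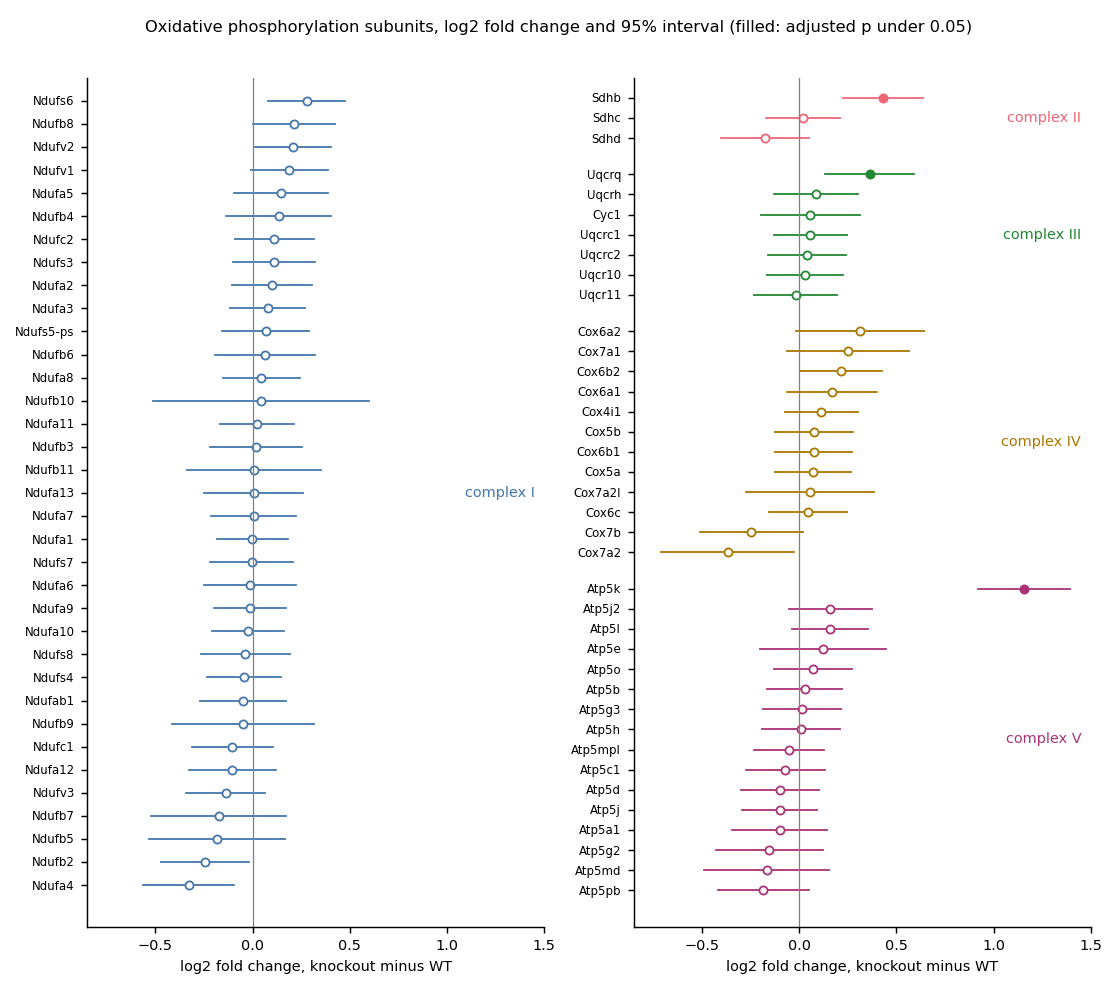
Difference (knockout minus WT, log2) of each of the 73 subunits, with its 95% confidence interval from limma (n = 3 arrays a group), grouped by complex. The 3 subunits past the adjusted p of 0.05, Atp5k, Sdhb and Uqcrq, belong to complexes V, II and III.

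In complex I none of 35 subunits passed the adjusted p in limma, and at an unadjusted p under 0.05 there were 3 higher and 2 lower. The median difference was 0.01, and the range ran from -0.33 to 0.28. The levels of Ndufs6, a zinc-binding accessory subunit of the matrix arm, were 12.40, 12.31 and 12.42 in WT and 12.68, 12.58 and 12.70 in the knockout. All 3 knockout arrays were above all WT arrays, and the difference of 0.28 ± 0.085 narrowly missed the threshold (adjusted p = 0.06165).

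Ndufa4, long listed with complex I and now assigned to complex IV, had the lowest difference of the complex I symbols. Its levels were 12.28, 12.00 and 12.07 in WT and 11.81, 11.72 and 11.84 in the knockout. The knockout arrays were all lower, by -0.33 ± 0.10 (adjusted p = 0.06199). Both Ndufs6 and Ndufa4 passed the threshold in 4 of 20 alternative analyses. Ndufb2, an accessory subunit of the membrane arm, followed with -0.24 ± 0.098 (adjusted p = 0.1254).

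The subunits that carry the redox centres of complex I were within 0.21 of WT. Ndufv1, which binds NADH and the flavin, read 11.96, 12.02 and 11.91 in WT and 12.16, 12.08 and 12.21 in the knockout, a difference of 0.19 ± 0.085 (adjusted p = 0.1647). Its partner Ndufv2, an iron-sulfur protein, read 12.21, 12.23 and 12.20 in WT and 12.47, 12.33 and 12.45 in the knockout, a difference of 0.21 ± 0.084 (adjusted p = 0.129). For both genes the groups did not overlap, without passing the threshold. Ndufs7 and Ndufs8, which hold the iron-sulfur clusters nearest to ubiquinone, differed by -0.01 ± 0.092 (adjusted p = 0.9756) and -0.04 ± 0.098 (adjusted p = 0.8221), and the groups overlapped for each. Ndufs1, which carries further clusters of the matrix arm, had a probe that was not above background on any array. Ndufb8, a membrane-arm subunit often used as a protein marker of the assembled complex, differed by 0.21 ± 0.090 (adjusted p = 0.1471). Ndufs5 was represented by a probe annotated to its pseudogene Ndufs5-ps, which differed by 0.07 ± 0.096 (adjusted p = 0.6704).

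In complex II, succinate dehydrogenase, Sdhb rose and the other subunits measured did not pass the test. Sdhb is the iron-sulfur subunit that hands electrons from the flavin of Sdha to ubiquinone. Its levels were 11.23, 11.31 and 11.12 in WT and 11.69, 11.62 and 11.64 in the knockout, so the groups did not overlap. The difference was 0.43 ± 0.088, or 1.35-fold (limma, adjusted p = 0.01687). In the deposited signals this was 2372 ± 158 (SD, n = 3) in WT and 3200.1 ± 79.0 (SD, n = 3) in the knockout. A second Sdhb probe differed by 0.43 as well (adjusted p = 0.0297 over all probes). The call was lost without WT array 1 (adjusted p = 0.05504), without knockout array 1 (adjusted p = 0.07508) and without knockout arrays 1 and 2 (0.42, adjusted p = 0.2293), with differences of 0.38 to 0.48 over all 20 alternatives. It was also lost with the summed lung marker level as a covariate (adjusted p = 0.1172) or with Xist as a covariate (adjusted p = 0.05416).

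The membrane anchors Sdhc and Sdhd, which bind ubiquinone, differed by 0.02 ± 0.082 (adjusted p = 0.9058) and -0.18 ± 0.097 (adjusted p = 0.2449). Sdhd read 10.41, 10.50 and 10.27 in WT and 10.25, 10.13 and 10.28 in the knockout, and the groups overlapped. The Sdha probe was not above background on any array, so the flavin-bearing partner of Sdhb was not measured.

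In complex III, the cytochrome bc1 complex, Uqcrq rose and the other 6 subunits lay between -0.02 and 0.09. Uqcrq is a small membrane subunit that contacts cytochrome b. Its levels were 8.93, 9.08 and 9.16 in WT and 9.34, 9.41 and 9.51 in the knockout. The groups did not overlap, and the difference was 0.36 ± 0.099, or 1.29-fold (limma, adjusted p = 0.0446). This call was the least stable: it was kept without WT array 3 (adjusted p = 0.04183) and lost without WT array 1 (0.1313), WT array 2 (0.08495), knockout array 1 (0.09393), knockout array 2 (0.09258) or knockout array 3 (0.1306). Without knockout arrays 1 and 2 the difference was 0.46 (adjusted p = 0.2206). With the deposited signals as given, with median scaling and with the lung marker covariate the adjusted p was 0.05302, 0.06144 and 0.126.

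The 6 other subunits of complex III included Cyc1, the cytochrome c1 that passes electrons to cytochrome c, at 0.06 ± 0.11 (adjusted p = 0.7497), and Uqcrh, the hinge protein at that docking site, at 0.09 ± 0.093 (adjusted p = 0.5515). Uqcr11 had the only negative difference, at -0.02 ± 0.092 (adjusted p = 0.9168). The core proteins Uqcrc1 and Uqcrc2 differed by 0.06 and 0.04. The probes of Uqcrfs1, the Rieske iron-sulfur protein, were not above background on any array.

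**Figure D3:**
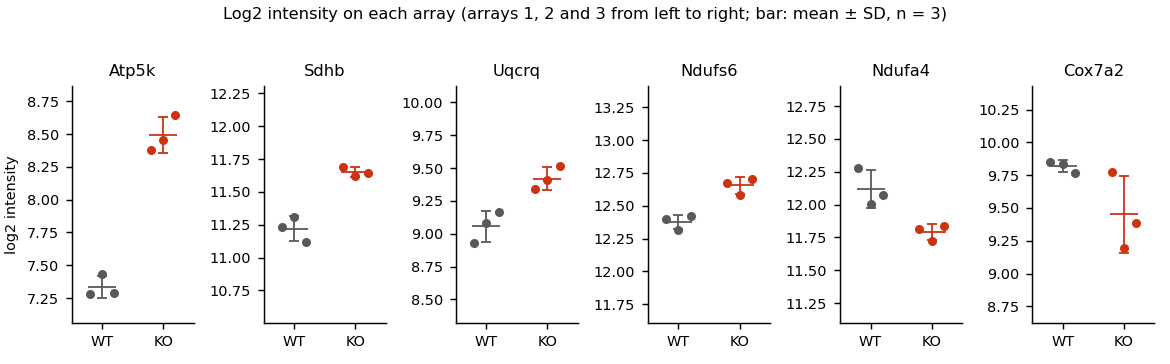
Log2 intensity of 6 subunits on each array, with WT arrays in grey, knockout arrays in red and bars for mean ± SD (n = 3), all panels spanning the same range of the log2 scale. For Atp5k, Sdhb and Uqcrq, the 3 subunits that rose, and for Ndufs6 and Ndufa4, which did not pass the threshold, the groups do not overlap, while Cox7a2 overlaps through knockout array 1.

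In complex IV, cytochrome c oxidase, none of the 12 subunits measured passed the adjusted p in limma, and at an unadjusted p under 0.05 there was 1 higher and 1 lower. The median difference was 0.07, and 10 of the 12 differences were positive. Cox4i1, the regulatory subunit that binds ATP, differed by 0.11 ± 0.081 (adjusted p = 0.3628). Cox5a, Cox5b and Cox6c differed by 0.05 to 0.08.

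Cox7a2, the form of subunit VIIa found in liver and most other tissues, had the lowest difference. Its levels were 9.85, 9.83 and 9.77 in WT and 9.77, 9.20 and 9.38 in the knockout. Knockout array 1 lay among the WT arrays and the other knockout arrays lay below them, with a difference of -0.37 ± 0.15 (adjusted p = 0.125). Without knockout array 1 the difference was -0.53 and passed the threshold (adjusted p = 0.03931). Cox7b, another small subunit, differed by -0.25 ± 0.11 (adjusted p = 0.1756).

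Complex IV has isoforms known from heart and skeletal muscle, among them Cox6a2 and Cox7a1, and a testis form, Cox6b2. Cox7a1 read 7.20, 6.99 and 7.21 in WT and 7.54, 7.11 and 7.49 in the knockout, a difference of 0.25 ± 0.13 (adjusted p = 0.235), and the groups overlapped. Cox6a2 was dim, at 5.27, 5.25 and 5.34 in WT and 5.44, 5.92 and 5.43 in the knockout, a difference of 0.31 ± 0.14 (adjusted p = 0.1695). Its groups did not overlap, and knockout array 2 was the highest. Cox6b2 differed by 0.22 ± 0.090 (adjusted p = 0.1384). Of 8 muscle markers 7 were on the array, and their summed level was 7.38 to 7.54 in WT and 7.64 to 7.94 in the knockout. Actc1 was at 4.55 to 4.63 in WT, below background, and at 5.31, 6.06 and 5.25 in the knockout. It was detected on 0 WT arrays and 3 knockout arrays, so it passed the filter only through the group where it was high. Its adjusted p in limma (0.02017) therefore cannot serve as support. Myh6, Ckm and Tnni3 were detected on 0 arrays. The part of muscle transcripts in these values was not tested.

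The balance between paired isoforms was compared within arrays, as the difference of their log2 intensities, for the 4 pairs with both members measured. Cox7a2 minus Cox7a1 was 2.66, 2.84 and 2.56 in WT and 2.23, 2.08 and 1.89 in the knockout. The groups did not overlap, and the shift of -0.62 had the smallest p that 3 against 3 arrays allow (exact two-sided permutation test, p = 0.1, adjusted over the 4 pairs 0.4). Cox7a2 minus Cox7a2l, an assembly factor of respiratory supercomplexes rather than a subunit proper, shifted by -0.42 (exact permutation p = 0.2, adjusted 0.4). The corresponding shifts were -0.14 for Cox6a1 minus Cox6a2 (exact permutation p = 0.5, adjusted 0.5) and -0.14 for Cox6b1 minus Cox6b2 (exact permutation p = 0.3, adjusted 0.4). No pair could pass 0.05 in this design.

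Cox4i2, the lung form of subunit IV, did not pass the filter. Its deposited signals were 6.2, -2.4 and 5.4 in WT and 19.8, 58.8 and 2.3 in the knockout. The signals above background were those of knockout arrays 1 and 2, where the lung markers were highest, and the part of lung RNA in them was not tested. Cox7b2, Cox8b and Cox8c, known from testis or muscle, were not above background on any array.

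In complex V, the ATP synthase, Atp5k rose and the other 15 subunits lay between -0.18 and 0.16. Atp5k encodes subunit e, a small protein at the interface where ATP synthase dimers form and bend the cristae. Its levels were 7.28, 7.43 and 7.29 in WT and 8.38, 8.45 and 8.64 in the knockout. Every knockout array was above every WT array, and the gap between groups was several times the spread within them. The difference was 1.16 ± 0.10 (95% confidence interval 0.92 to 1.39), or 2.23-fold (limma, adjusted p = 0.0006618). In the deposited signals the probe went from 146 ± 9.8 (SD, n = 3) in WT to 345 ± 34.4 (SD, n = 3) in the knockout. The rise passed the threshold in all 20 alternatives, with differences of 1.01 to 1.31 and adjusted p from 6.807e-05 to 0.02283. Without knockout arrays 1 and 2 it was 1.31 (adjusted p = 0.02283). The lung markers Sftpc and Scgb1a1 were above WT on all 3 knockout arrays, while Sftpd was below WT on knockout array 3 (6.29, against 7.25 to 7.57). The part of lung transcripts in the rise was not tested. The rise of Atp5k rests on 1 probe: the other Atp5k probe was dim, with signals of 8.0, 7.9 and 18.3 in WT and 8.1, 8.3 and 10.6 in the knockout.

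The partners of subunit e in the membrane part did not pass the test. Atp5l, subunit g, which pairs with subunit e in the membrane, read 13.35, 13.41 and 13.34 in WT and 13.48, 13.61 and 13.50 in the knockout, a difference of 0.16 ± 0.084 (adjusted p = 0.2287). Its groups did not overlap, with a difference smaller than that of Atp5k. Atp5j2, subunit f, differed by 0.16 ± 0.092 (adjusted p = 0.2618), and Atp5md, another small dimer-associated protein, by -0.17 ± 0.14 (adjusted p = 0.4352).

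The catalytic head and the proton-carrying ring were close to WT. Atp5b, the beta subunit that holds the catalytic sites, read 13.91, 14.02 and 14.01 in WT and 13.99, 13.99 and 14.05 in the knockout, a difference of 0.03 ± 0.083 (adjusted p = 0.8351) with overlapping groups. Atp5a1, the alpha subunit, differed by -0.10 ± 0.11 (adjusted p = 0.5399) on its brightest probe, while a second, dimmer probe differed by 0.59 (adjusted p = 0.03455 over all probes), so its direction depends on the probe. The ring subunits Atp5g2 and Atp5g3 differed by -0.15 ± 0.12 (adjusted p = 0.4062) and 0.02 ± 0.087 (adjusted p = 0.924). Atp5pb, the stator subunit b, had the lowest difference of the complex on its brightest probe, at -0.18 ± 0.10 (adjusted p = 0.2416). Knockout levels of 12.05, 11.95 and 12.07 lay just below WT levels of 12.20, 12.36 and 12.08. Its other kept probes differed by -0.21, 0.05 and 0.31, so its direction depends on the probe as well.

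Over all complexes, 7 subunits that carry a redox centre or catalytic site were measured: Ndufs7, Ndufs8, Ndufv1, Ndufv2, Sdhb, Cyc1 and Atp5b. Of these 7, Sdhb alone passed the threshold, beside 16.7% of all genes tested, and their median difference was 0.06. Of 33 further kept probes for 24 subunits, 18 had the sign of the main probe. The second probes of Sdhb and Atp5a1, 2 of the 33, passed an adjusted p over all probes, beside 16.8% of all probes tested.

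The promoters of Atp5k and Sdhb share a letter string, the core of the site bound by nuclear respiratory factor 1 (NRF1), which is known to act on many genes of this pathway. They are printed here with Ndufa6 and Ndufa11, which also hold it and, among such genes, were near 0 in their difference (-0.01 and 0.02). Each line gives the 150 bases before the transcription start, 5′ to 3′ on the gene's strand, from RefSeq on GRCm38.p6, with the match to GCGCATGC on either strand (GCATGCGC in reverse) in capitals. The Sdhb window is chr4:140961121-140961270 (plus strand), the Atp5k window chr5:108434400-108434549 (minus), the Ndufa6 window chr15:82354292-82354441 (minus) and the Ndufa11 window chr17:56717612-56717761 (plus).
Atp5k: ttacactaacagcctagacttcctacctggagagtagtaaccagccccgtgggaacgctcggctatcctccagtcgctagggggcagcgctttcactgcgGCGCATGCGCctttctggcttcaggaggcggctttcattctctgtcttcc
Sdhb: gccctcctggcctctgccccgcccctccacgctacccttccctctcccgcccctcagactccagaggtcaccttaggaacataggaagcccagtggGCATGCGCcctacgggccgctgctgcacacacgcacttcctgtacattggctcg
Ndufa6: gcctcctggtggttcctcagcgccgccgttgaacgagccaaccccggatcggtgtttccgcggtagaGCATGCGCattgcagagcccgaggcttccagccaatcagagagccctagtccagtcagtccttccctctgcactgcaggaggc
Ndufa11: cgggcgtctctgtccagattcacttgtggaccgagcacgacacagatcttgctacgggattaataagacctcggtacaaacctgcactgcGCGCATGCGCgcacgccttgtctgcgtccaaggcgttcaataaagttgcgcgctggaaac

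The string starts 54 bases before the start of Sdhb and 83 before that of Ndufa6. In Atp5k and Ndufa11 it overlaps its own reverse, with matches beginning 50 and 48 bases before the start of Atp5k and 60 and 58 before that of Ndufa11. Ndufa6 and Ndufa11 were picked for their small differences, among genes not past the test whose match lies in the bases shown. The split of 2 genes that rose and 2 that did not is therefore set by that choice. Of all 10 subunit genes with the string, 2 rose.

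Promoter windows of 250 bases before to 50 after the start were matched for 65 of the 80 genes, in 70 windows. Uqcrq is not among the 65. The NRF1 string was in 10 of these (14.3%), against 2.71% of 32851 windows of all genes. The string CCGGAAG of GABPA, another activator of the pathway, was in 16 (22.9%, against 8.86%), AAGATGGC of YY1 in 10 (14.3%, against 2.75%) and AAGGTCA of the estrogen-related receptors in 7 (10.0%, against 4.72%), each searched on both strands. A match is a description of letters and not a bound site. Of the 10 genes with the NRF1 string 2 rose, with a median difference of 0.05 over the 10, beside 8.23% of all genes that rose. Of those with the GABPA, YY1 and estrogen-related receptor strings 2 of 16, 0 of 10 and 1 of 7 rose, the calls being Atp5k and Sdhb again.

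Among 16 regulators of mitochondrial biogenesis and mitochondrial DNA upkeep, Ppargc1a, Ppargc1b and Esrra rose and Polg fell. Of all genes tested, 8.23% rose and 8.49% fell. Ppargc1a, the coactivator induced in liver by fasting, read 7.09, 8.18 and 6.62 in WT and 9.65, 9.71 and 9.52 in the knockout. The WT arrays were widely spread but all lay below the knockout arrays, and the difference was 2.33 ± 0.35, or 5.01-fold (adjusted p = 0.004875). Ppargc1b, its close relative, read 8.38, 8.95 and 8.82 in WT and 9.71, 9.91 and 10.00 in the knockout, a rise of 1.15 ± 0.16 (2.23-fold, adjusted p = 0.003614). Esrra, the estrogen-related receptor alpha that works with these coactivators, read 8.35, 8.86 and 8.64 in WT and 9.43, 9.42 and 9.51 in the knockout, a rise of 0.84 ± 0.13 (1.79-fold, adjusted p = 0.006256). The groups did not overlap for Ppargc1b or Esrra either. All 3 rises kept their call when any 1 array was left out. Without knockout arrays 1 and 2 the differences were 2.22 for Ppargc1a, 1.28 for Ppargc1b and 0.90 for Esrra, and the calls were lost (adjusted p = 0.1188, 0.0689 and 0.114).

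**Figure D4:**
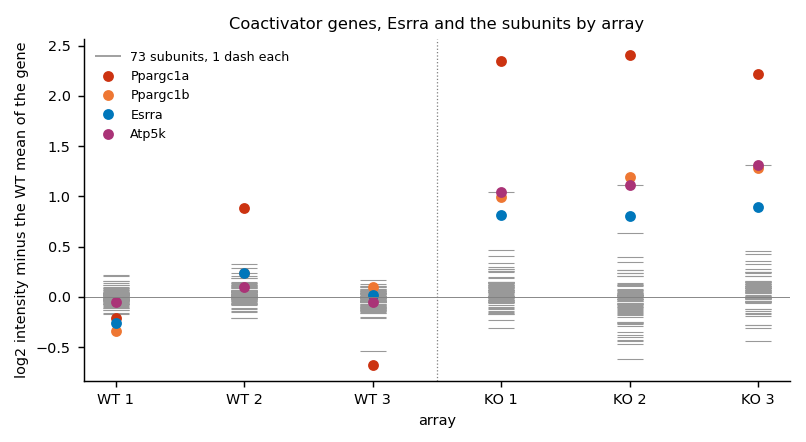
Level of Ppargc1a, Ppargc1b, Esrra and Atp5k on each array, and of each of the 73 subunits as a grey dash, as log2 intensity minus the gene's mean over the 3 WT arrays. On the knockout arrays the 4 named genes lie above every other subunit.

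Of the other 12 regulators none passed the threshold in limma, and 4 did at an unadjusted p under 0.05 (Tfam, Esrrg, Polg2 and Nrf1). Of all genes tested, 33.6% passed that unadjusted threshold, so the 4 of 12 are near the share of all genes. Esrrg, a relative of Esrra, read 4.83, 5.22 and 5.10 in WT and 6.40, 5.24 and 6.47 in the knockout, a difference of 0.99 ± 0.31 (adjusted p = 0.06666), with knockout array 2 close to WT. Polg2, the accessory subunit of the mitochondrial DNA polymerase, differed by -0.41 ± 0.15 (adjusted p = 0.0925). Nrf1 differed by 0.29 ± 0.10 (adjusted p = 0.09983) and Gabpa by -0.12 ± 0.11 (adjusted p = 0.4639). Tfam, which packages and transcribes mitochondrial DNA, read 10.09, 10.17 and 10.20 in WT and 9.90, 9.75 and 9.89 in the knockout. Its groups did not overlap, and the difference of -0.31 ± 0.087 narrowly missed the threshold (adjusted p = 0.05149). Polg, the catalytic subunit of the mitochondrial DNA polymerase, fell by 0.44 (adjusted p = 0.03383), a call kept in 1 of 6 omissions of a single array (without WT array 1, 0.02996) and lost without WT array 2 (0.08013), WT array 3 (0.06484) or knockout arrays 1 (0.1124), 2 (0.0875) or 3 (0.0614). Cidea, a marker of brown fat that the liver can also express, rose, at 5.89, 6.43 and 5.71 in WT and 8.37, 6.58 and 8.61 in the knockout (limma, adjusted p = 0.0419). Its level on knockout array 2 was close to that on WT array 2, whereas Ppargc1a read 9.71 on knockout array 2. The brown fat markers Ucp1 and Elovl3 were detected on 0 arrays.

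Genes that build, feed or surround the complexes passed the threshold about as often as all genes. Over 12 lists with members tested, 188 genes, 22 rose and 11 fell (17.6%, against 16.7% of all genes), with a median difference of 0.03. Of these 33 calls 12 were kept in each of the 6 omissions of a single array. The number kept was 15 without WT array 1, 20 without WT array 2, 25 without WT array 3, 13 without knockout array 1, 24 without knockout array 2, 19 without knockout array 3 and 4 without knockout arrays 1 and 2 (Timmdc1, Gpd2, Prodh and Fh1). With the lung marker covariate it was 11.

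In the 5 lists of assembly factors 4 of 45 genes rose and 4 fell (17.8%, close to the 16.7% of all genes). Of 13 for complex I, Ndufaf4 rose by 0.84 ± 0.13 (adjusted p = 0.006271) and Timmdc1, which builds the membrane arm, fell by 0.85 (SE 0.12, adjusted p = 0.004309). Both calls were kept in every omission of a single array, and without knockout arrays 1 and 2 that of Ndufaf4 was lost (0.91, adjusted p = 0.1043). Of 4 for complex III, Bcs1l, which inserts the Rieske protein, fell by 0.36 (adjusted p = 0.03402), a call kept in 1 of 6 omissions of a single array. Of 20 for complex IV, Coa5, Higd1a and Cox11, which delivers copper, rose by 0.38 to 0.46, and Coa4 and Cox20 fell by 0.45 and 0.61. Higd1a was detected on 1 of 3 WT arrays and on 3 knockout arrays, so it passed the filter through the group where it was high. These calls were unstable: Higd1a and Cox20 kept theirs in 1 of 6 omissions of a single array, Coa5 and Cox11 in 2 and Coa4 in 3, and none of the 3 rises was kept without WT array 1, knockout array 1 or knockout array 3. None of the 4 complex II factors or the 4 ATP synthase factors passed the threshold in limma, and 0 of either list did at an unadjusted p under 0.05. Of the 2 lists, Sdhaf3 had the smallest p in the former (-0.20, adjusted p = 0.1638) and Atpif1, the inhibitor of ATP hydrolysis, in the latter (0.15, adjusted p = 0.3119).

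Other enzymes hand electrons to ubiquinone from outside complexes I and II. Of 17 genes of the list that holds them, with cytochrome c and ubiquinone synthesis, 4 rose and 3 fell, with a median of -0.09, beside 16.7% of all genes past the threshold. Gpd2, the glycerol phosphate dehydrogenase of the inner membrane, went from 10.79 ± 0.30 (SD, n = 3) to 9.04 ± 0.22 (SD, n = 3), a difference of -1.74 ± 0.17 (adjusted p = 0.001013). Prodh, proline dehydrogenase, went the other way, from 6.83 ± 0.13 (SD, n = 3) to 8.22 ± 0.13 (SD, n = 3), a difference of 1.39 ± 0.11 (adjusted p = 0.000418). Sqor, which oxidises sulfide, rose by 0.66 (adjusted p = 0.01337), and Coq10b, a ubiquinone-binding protein, by 0.57 (adjusted p = 0.02145). The call of Sqor was lost without WT array 1 (adjusted p = 0.0514). That of Coq10b was lost with the mean of its probes (0.16, adjusted p = 0.2366) and without WT array 1 (0.07282), knockout array 1 (0.0746) or knockout array 2 (0.05713). Etfdh and Etfa, which carry electrons from fatty acid oxidation, fell by 0.64 (adjusted p = 0.005683) and 0.30 (adjusted p = 0.04005). The Etfa call was lost in each of the 6 omissions of a single array, and the Etfdh call was lost when only probes of equal ID in both deposited tables were used (-0.17, adjusted p = 0.8079).

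In the citric acid cycle and pyruvate dehydrogenase, 4 of 15 genes rose and 1 fell, beside 8.23% and 8.49% of all genes. Fh1, fumarate hydratase, which acts on the product of complex II, went from 11.41 ± 0.064 (SD, n = 3) to 12.36 ± 0.16 (SD, n = 3), a rise of 0.95 ± 0.11 (adjusted p = 0.001664). Dlat, a subunit of pyruvate dehydrogenase, rose by 0.61 (adjusted p = 0.006123) and Ogdh, a subunit of oxoglutarate dehydrogenase, by 0.47 (adjusted p = 0.01371). Suclg2, of succinyl-CoA ligase, fell by 0.34 (adjusted p = 0.03842), a call kept in 1 of 6 omissions of a single array, and that of Ogdh was lost without knockout array 1 (adjusted p = 0.05932). Without knockout arrays 1 and 2 Fh1 kept its call (1.05, adjusted p = 0.03203) and Dlat lost it (0.65, adjusted p = 0.1038).

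Of 12 chaperone, protease and import genes 3 rose and none fell in limma, beside 8.23% and 8.49% of all genes. At an unadjusted p under 0.05 there was 1 lower. The rises were Tomm40, the outer membrane import pore, at 0.62 (adjusted p = 0.003331), Timm17a at 0.62 (adjusted p = 0.006699) and Timm50 at 0.38 (adjusted p = 0.02563). Timm17a and Timm50 belong to the inner membrane translocase. With probes of equal ID in both deposited tables Tomm40 was at 0.24 and lost its call (adjusted p = 0.1265). Timm50 kept its call in 2 of 6 omissions of a single array. Of 72 mitochondrial ribosomal protein genes 4 rose and 2 fell, beside 8.23% and 8.49% of all genes, with a median of 0.01. The rises included Mrpl47 (0.55), Mrps31 (0.38) and Mrps23 (0.39), and the falls were Mrpl49 (-0.46) and Mrpl35 (-0.39). The number of ribosomal rises was 0 without WT array 1 or without knockout array 1 and 12 with array weights, and Mrpl47 was at 0.33 with probes of equal ID (adjusted p = 0.1601). None of 6 genes for exchange of ATP, ADP and phosphate passed the threshold in limma (1 did at an unadjusted p under 0.05, Vdac2, at 0.40 with adjusted p = 0.06791), nor did any of 5 antioxidant genes (0 at an unadjusted p under 0.05, Txn2 having the smallest p, at 0.10 with adjusted p = 0.5709). The 13 subunits encoded by mitochondrial DNA were not analysed here.

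Among the other cell types the marker lists cover, the summed level of 4 endothelial markers was 11.35 to 11.60 in WT and 11.74 to 11.94 in the knockout. Lyve1 rose by 0.57 (adjusted p = 0.007622), while Pecam1 (0.36), Cdh5 (0.06) and Stab2 (-0.09) did not pass. The summed level of erythroid markers was 15.68 to 15.70 in WT and 15.73 to 15.81 in the knockout, from 6 of 10 listed markers on the array. Slc4a1 rose by 0.32 (adjusted p = 0.0392), while Hbb-bh1 (0.29), Klf1 (0.21), Hba-a1 (0.01) and Alas2 (-0.11) did not pass. Hba-a1, the brightest of them, read 14.76 to 14.79, near the highest mean level of any gene tested. Of the pancreas list, Reg1 was below background in WT (4.68 to 4.94) and read 9.68, 11.07 and 6.07 in the knockout. It was detected on 0 WT arrays and 3 knockout arrays, so it passed the filter only through the group where it was high. Its adjusted p in limma (0.03851) therefore cannot serve as support. Cela1 of the same list did not pass (0.23, adjusted p = 0.3356), and Prss2, Cpa1 and Ctrb1 were detected on 0 arrays. Macrophage, neutrophil, megakaryocyte and stellate cell lists had 0 of 16 markers past limma's adjusted p of 0.05, and 3 at an unadjusted p under 0.05. The neutrophil sum was 14.68 to 14.80 in WT and 14.55 to 14.64 in the knockout, and the stellate sum 13.08 to 13.15 and 13.21 to 13.29. The stellate sum follows Dcn, the brightest of its 4 markers, which differed by 0.18. The others differed the other way: Lum by -0.23, Col3a1 by -0.06 and Col1a1 by -0.04. The part of these cells in the differences of the subunits was not tested.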

How the data were processed

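Total RNA was isolated with an RNeasy kit and labelled as biotinylated cRNA, per the labels' protocols. The authors deposited probe intensity values on a linear scale in 2 tables, 1 of which also holds detection p-values per probe and array. The deposited intensities are titled as not normalized, but 25.0% to 25.1% of them are below 0 on each array and the sorted values of any 2 arrays differ by at most 0.2. What software and settings made the deposited tables is not given in the sources used. Quantile normalization by the authors would bear on every level, since it sets all arrays to 1 distribution.

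From these values limma's neqc (version 3.58.1, R 4.3.3) inferred the background from the detection p-values, added an offset of 16, applied quantile normalization and took log2, which shrinks differences of dim genes. Rows were named through the table with probe IDs by their 6 intensity values, since the IDs of the other table repeat (9535 rows differ). Of 45281 probes 34885 have 1 symbol in the platform annotation, 18 several and 10378 none, and 34807 symbols were updated through Entrez IDs in RefSeq. The brightest kept probe stood for a gene. Groups were taken from the titles and genotype labels, and compared with lmFit and eBayes (two-sided, Benjamini-Hochberg over 11346 genes), and isoform pairs with exact permutation tests. The comparison was tested on simulated data. The members and lists were chosen with earlier results of these data known.

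Named are Igf2, the subunits past the threshold, those with the 2 smallest p in each direction per complex, the redox and catalytic subunits, the isoform pairs and, per list of related genes, up to 3 genes past the threshold in each direction, or else the 1 with the smallest p. Ndufb8, Cox5a, Cox5b, Cox6c, Uqcrc1, Uqcrc2, Atp5j2, Atp5md, Atp5a1, Ndufs5-ps, Ndufa6, Ndufa11, Tfam, Nrf1, Gabpa, Esrrg and Polg2 were added after their values were seen. Not analysed here were Cox8a, Atp5g1 and Ndufa4l2. The number of arrays limits the precision. A total of 20 alternatives were run.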

Additional observations from a re-analysis of the deposited data

How the results depend on the processing

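Over the 20 alternatives, the rise of Atp5k and the fall of Igf2 kept their direction and their call. The number of subunits that rose was 1 with the lung marker covariate, and 1 to 3 when a single array was left out. It was 4 with no filter, an offset of 50, trended robust variance or array weights (Ndufs6 added). With every probe tested it was 4 as well (Atp5a1 added, by its second probe). The number that fell was 1 (Ndufa4) with an offset of 50, with median scaling, with trended robust variance or with array weights, and 0 to 1 when a single array was left out (Cox7a2 without knockout array 1). Over all genes 1897 passed, against 3025 with array weights, 1222 with Xist as a covariate, 678 with the lung covariate, 228 without knockout arrays 1 and 2, and 849 to 1880 when a single array was left out. The median log2 fold change of the OXPHOS subunits (0.030, OXPHOS standing for oxidative phosphorylation) was -0.005843 with median scaling, 0.077 with the lung covariate, 0.071 without knockout arrays 1 and 2, and 0.0014 to 0.053 when a single array was left out. The shift of the isoform pair Cox6a1-Cox6a2 turned to 0.060 without knockout arrays 1 and 2. Settings with fewer arrays or an added covariate have fewer degrees of freedom, and the cause of the other changes was not tested.

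The titles number the arrays of each group. Over genes, the deviations of same-numbered arrays from their group means had correlations near 0 (r = -0.0044, 0.028 and 0.015). Differently numbered arrays were not compared, so these values cannot show what same-numbered arrays share besides the number. With that number as a replicate block 1323 genes and 2 subunits, Atp5k and Sdhb, passed, and Uqcrq did not (adjusted p = 0.05711). Among all genes that passed, the share of rises was 49.2%, from 41.7% with every probe tested to 52.6% with array weights. Subunits whose probes were not above background, among them Sdha, Ndufs1 and Uqcrfs1, have no measured difference.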
